A study of Mus musculus with 6 samples.

Results

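Interferon response genes were followed in whole retinas from the DBA/2J strain, inbred mice whose eye pressure climbs with age and which then develop glaucoma. The set holds 37 genes, chosen by name with earlier results of these data known. They are the chains of the interferon receptors, the transcription factors that carry the signal, RNA sensors and genes that interferons induce. All probe sets whose 1 gene symbol in the platform annotation is a listed name were taken, which gave 54 of the 45037 non-control probe sets of the array and covered 35 of the 37 genes. The groups were 3 retinas of 8-month mice with elevated intraocular pressure and 3 retinas of 3-month mice with normal pressure. Each array held 1 retina of 1 female DBA/2J mouse, from separate animals. For the older animals the final pressure averaged 27.4 ± 2.67 mmHg, and for the younger ones 17.5 ± 1.99 mmHg (SD over 3 eyes per age). Animals were picked by pressure, so that age and pressure cannot be told apart here, and no other strain enters the comparison.

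Interferons are secreted antiviral proteins. Type I interferons bind Ifnar1 and Ifnar2, and interferon gamma binds Ifngr1 and Ifngr2. The signal reaches the nucleus as STAT proteins, with Irf9 joining Stat2 in the complex that binds the interferon-stimulated response element, and switches on genes whose products block viral entry, translation and replication. In the retina, glia and microglia are known to be able to respond.

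Values are log2 signals per probe set, as deposited. GCRMA, the method behind them, presses weak signals toward a floor, and the lowest value in the table was 2.17. A probe set was called measured where the third highest of its 6 values reached 4, without regard to age, and a gene with several was read from its measured probe set of highest mean. By this filter 19 of the 37 genes were measured, on 25 probe sets, against 11219 of the 18193 genes in the annotation, or 61.7%. Of the 19, 17 had all 6 values at or above 4. Ifit1 and Ifitm2 had 4 such values each and passed only through the 8-month retinas, where their means were higher. The levels of a retina sample cannot tell more cells of a type from more RNA per cell.

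The arrays hold some features that bear on these genes. The 8-month retina 1 and all 3-month retinas came from left eyes, and 8-month retinas 2 and 3 from right eyes. Lens genes, for the fibre cell proteins of the lens, were high in 8-month retina 1 and 3-month retina 3: summed over 10 measured genes of 13 listed, the linear signal was 178 to 17665 at 8 months and 267 to 32811 at 3 months. Rod, cone, bipolar, amacrine, ganglion cell and Müller glia markers were measured in all arrays, as a retina should give. Over all genes tested, 1 of 11219 passed at an adjusted p of 0.05, and the median log2 difference of 8 minus 3 months was -0.06.

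None of the 19 measured interferon response genes passed the test over all probe sets (limma, Benjamini-Hochberg), and the smallest adjusted p was 0.269. Over all genes 0.00891% passed. At an unadjusted limma p under 0.05, 6 of the 19 were higher at 8 months, against 3.58% of all genes, and 1 was lower, against 11.5%. The list was made with earlier results of these data known. Counts beside shares of all genes are thus description and no support for a rise. The 6 were Ifitm1, Ifitm2, Ifitm3, Ifi27, Irf9 and Ifi35, and the 1 lower gene was the receptor gene Ifnar1. Ifitm2 passed the filter only through the 8-month retinas, so its place among the 6 is no support for a rise. Ifi27 and Ifi35 were read from less specific probe sets. The ages did not overlap in 2 genes that were higher at 8 months, Ifitm3 and Ifi27, against 6.05% of genes, and in 1 that was lower, Ifnar1, against 16.9%. By sign alone 14 of the 19 were higher, against 36.5% of genes, and the median log2 difference of the 19 was 0.04. The 14 include Ifit1 and Ifitm2, and also Mx1, whose log2 difference was 0.02 at values that may be a floor. With eye side as a covariate, the age difference compares 8-month retina 1 alone with the 3-month retinas, since all of these were left eyes. In place of 6 the count there was 0, where 1.85% of all genes were called. It was 1 without 3-month retina 1, against 2.83% of genes, 1 without 8-month retina 2, against 2.12%, and 1 without 8-month retina 3, against 2.33%. It was 3 without 3-month retina 2, against 6.1%, 4 without 3-month retina 3, against 2.36%, and 4 without 8-month retina 1, against 2.4%. Leaving out the less specific probe sets gave 4, against 3.2%, and the mean of all measured probe sets of a gene gave 5, against 3.71%.

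**Figure D1:**
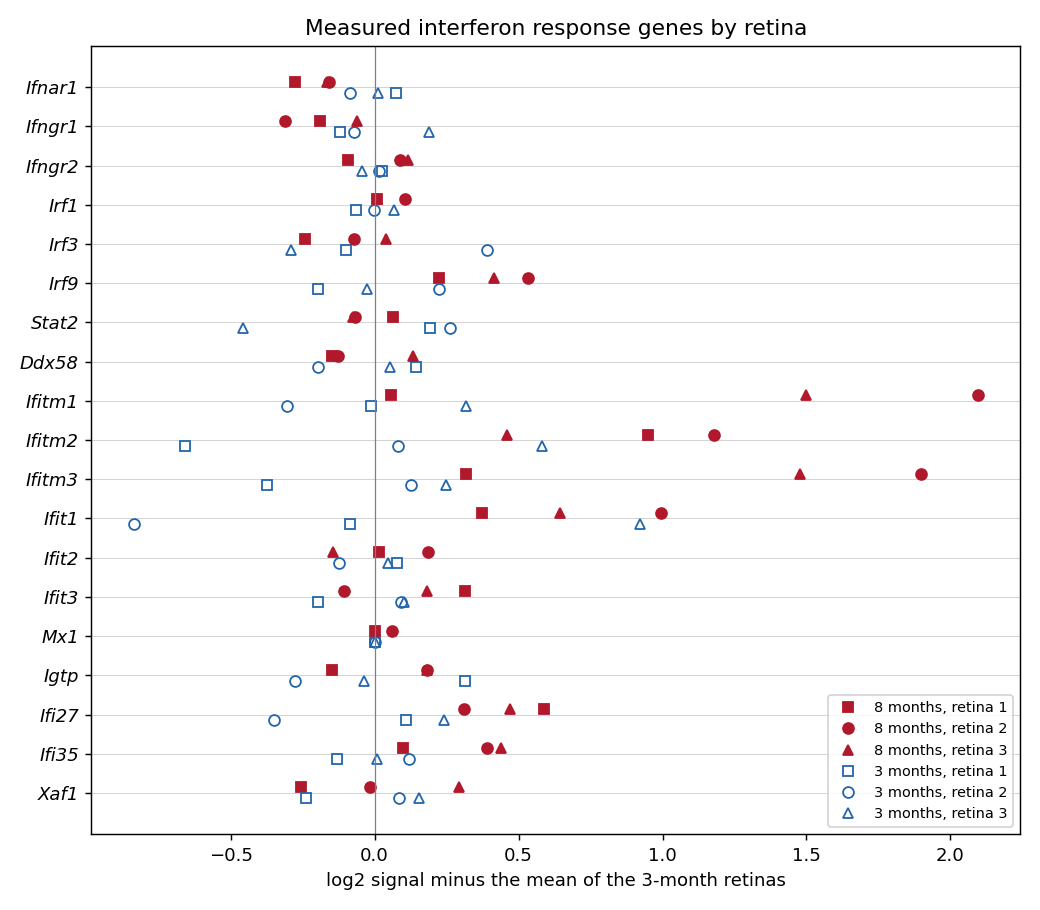
Log2 signal of the 19 measured interferon response genes in each retina, minus the mean of the 3-month retinas, on the x axis. Filled red symbols are 8-month retinas and open blue symbols 3-month retinas; squares, circles and triangles are retinas 1, 2 and 3. Ifitm1 and Ifitm3 reach the farthest to the right, in 8-month retinas 2 and 3, and most other genes stay within 0.5 of the 3-month mean.

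The Ifitm genes encode small membrane proteins that hinder the fusion of viruses with the cell. Ifitm1, Ifitm2 and Ifitm3 had the largest log2 differences among the 19 genes. Ifitm3 read 6.90, 8.48 and 8.06 in 8-month retinas 1 to 3, against 6.21, 6.71 and 6.83 in 3-month retinas 1 to 3. The 8-month values all lay above the 3-month ones, but retina 1 did so by 0.07 only. Its mean was 7.82 ± 0.82 at 8 months and 6.58 ± 0.33 at 3 months (log2, SD, n = 3 each), a ratio of 2.35, which did not pass (limma adjusted p = 0.269). Ifitm1 read 4.84, 6.88 and 6.28 in 8-month retinas 1 to 3, against 4.77, 4.48 and 5.10 in the 3-month ones. Here 8-month retina 1 lay inside the 3-month range and the other 8-month retinas well above it. The log2 difference of Ifitm1 was 1.22 ± 0.48 (SE), a ratio of 2.33 (limma adjusted p = 0.316), and 0.78 without 8-month retina 2. Of all 11219 genes, 12 had a ratio of 2 or more, or 0.107%, and Ifitm1 and Ifitm3 were both among them.

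Ifitm2 had another pattern. It read 4.70, 4.93 and 4.21 in 8-month retinas 1 to 3, against 3.09, 3.83 and 4.33 in the 3-month ones. The ages overlapped through 8-month retina 3 and 3-month retina 3, and 8-month retina 1 stood among the high values. The log2 difference was 0.86 ± 0.32 (SE), a ratio of 1.82 (limma adjusted p = 0.304). It was 0.53 without 3-month retina 1, whose value was the lowest.

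**Figure D2:**
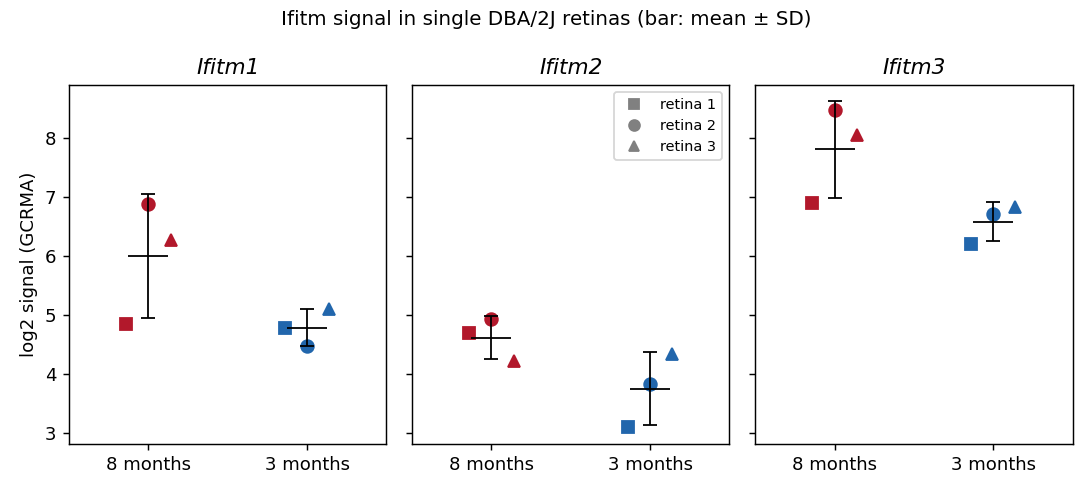
Log2 signal of Ifitm1, Ifitm2 and Ifitm3 in single retinas (y axis), with 8-month retinas in red and 3-month retinas in blue, and bars for mean ± SD (n = 3). In Ifitm1 and Ifitm3 the square of 8-month retina 1 lies near the 3-month values, whereas in Ifitm2 it lies with the 8-month ones.

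The 3 genes are neighbours on chromosome 7. In the RefSeq gene table of GRCm38.p6, Ifitm5, Ifitm2, Ifitm1, Ifitm3 and Ifitm6 follow each other as protein-coding genes. Ifitm5, known from bone, read 2.47 in every retina, and Ifitm6 lay between 2.77 and 2.84, both below the filter. Of the 3 coding genes on each side of this row, Cox8b alone was measured, with a log2 difference of -0.13 (limma adjusted p = 0.821). Thus 3 of the 5 Ifitm genes in the row were measured.

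The promoters of these genes are shown because the response element is the best known route from interferon to them. Windows run from 250 bases before the RefSeq start site to 30 after it, in GRCm38.p6, and Ifit1, an RNA-binding effector long used as a marker of type I interferon, is given for comparison. Capitals mark matches to the core of the response element, searched on both strands as GAAA, any pair of bases, and GAAA.
Ifitm1, chr7:140967826-140968105, plus strand: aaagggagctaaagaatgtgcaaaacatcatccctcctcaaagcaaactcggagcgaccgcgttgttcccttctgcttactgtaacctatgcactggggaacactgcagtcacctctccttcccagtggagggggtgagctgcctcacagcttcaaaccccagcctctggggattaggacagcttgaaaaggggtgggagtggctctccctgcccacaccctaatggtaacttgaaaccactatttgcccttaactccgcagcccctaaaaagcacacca
Ifitm2, chr7:140955932-140956211, minus strand: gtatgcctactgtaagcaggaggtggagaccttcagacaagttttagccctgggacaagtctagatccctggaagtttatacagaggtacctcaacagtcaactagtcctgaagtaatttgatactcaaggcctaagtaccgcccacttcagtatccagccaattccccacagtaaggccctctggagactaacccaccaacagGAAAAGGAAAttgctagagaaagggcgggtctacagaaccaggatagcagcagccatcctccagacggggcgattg
Ifitm3, chr7:141010715-141010994, minus strand: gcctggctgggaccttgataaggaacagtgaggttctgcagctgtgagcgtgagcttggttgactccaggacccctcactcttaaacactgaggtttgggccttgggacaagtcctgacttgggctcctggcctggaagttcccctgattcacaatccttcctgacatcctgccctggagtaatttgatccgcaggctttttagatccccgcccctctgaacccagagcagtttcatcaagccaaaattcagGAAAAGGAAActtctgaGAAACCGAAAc
Ifit1, chr19:34640639-34640918, plus strand: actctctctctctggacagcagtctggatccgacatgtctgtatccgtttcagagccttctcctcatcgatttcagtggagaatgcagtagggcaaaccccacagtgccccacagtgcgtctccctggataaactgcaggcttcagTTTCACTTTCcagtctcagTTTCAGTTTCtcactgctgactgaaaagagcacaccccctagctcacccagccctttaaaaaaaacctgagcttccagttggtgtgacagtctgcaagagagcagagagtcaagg
Ifitm3 held 2 matches, whose first bases lay 2 and 19 bases after the start site, and the second overlapped a match to the STAT motif TTCNNNGAA. Ifitm2 held 1, at 46 bases before the start, and Ifit1 held 2 on the other strand, at 104 and 85 bases before it. The letters were not found in the window of Ifitm1. The gene table places Ifitm1 at 140967429 to 140969827 and Ifitm2 at 140954837 to 140959686. The start sites used for these genes thus lie inside the gene, whereas those of Ifitm3 and Ifit1 lie at its outer end. Sequence at the outer ends of Ifitm1 and Ifitm2 was not searched, so their matches cannot be set directly beside those of Ifitm3 and Ifit1. Among all 32851 windows of the table, which run on to 50 bases after the start, 3.44% held the core and 8.3% the STAT motif. Of the 30 interferon response genes with a window, 15 held the core and 10 the STAT motif, against 3.99% and 9.55% of 27025 genes. Many of the genes were listed because interferons induce them, so these shares describe the list and are no result of these arrays. The core was found in 7 of the 17 measured genes with a window and in 8 of the 13 unmeasured ones. A match describes the sequence and does not show that the element is used in the retina.

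Retina 1 stood apart from the other 8-month retinas in 2 of the 19 genes. A gene was said to set retina 1 apart where retina 1 lay at least 0.5 (log2) below both other 8-month retinas and farther from the nearer one than these were from each other. Ifitm1 and Ifitm3 met this, against 66 of 11219 genes, or 0.588%, and 0 of the 19 set it apart as higher, against 1.1%. The gap of retina 1 to the nearer of the other retinas was 1.45 for Ifitm1 and 1.16 for Ifitm3. Over all 11219 genes these were the third and the fourth gap in order of size. The genes were listed with earlier results of these data known, so this order and the share above are description only. Ifitm1 was 4.13 times as high in retina 2 and 2.72 times as high in retina 3 as in retina 1, and Ifitm3 3.00 and 2.24 times. The remaining 17 genes had gaps from 0.32 for Igtp down to -0.49 for Ifitm2, a negative gap meaning that retina 1 was not the lowest. These values describe 3 animals, and no test was made between retinas of 1 age.

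Counted by retina, 4 of the 19 genes in 8-month retina 1 lay above all 3-month retinas, against 17% of all genes. In 8-month retina 2 it was 11, against 17.7%, and in 8-month retina 3 it was 8, against 20.2%. The 11 include Mx1, at 4.34 against 4.28, which may be a floor. They also include Ifit1 and Ifitm2, which passed the filter only through the 8-month retinas. Retina 1 was thus near the background in this count, through Ifitm2, Ifitm3, Ifit3 and Ifi27. The last pressures were 25.3, 26.5 and 30.4 mmHg in 8-month retinas 1 to 3. Ifitm1 and Ifitm3 were lowest in retina 1, of lowest pressure, and highest in retina 2, of middle pressure. A link of these genes to pressure among the 3 animals was not tested.

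**Figure D3:**
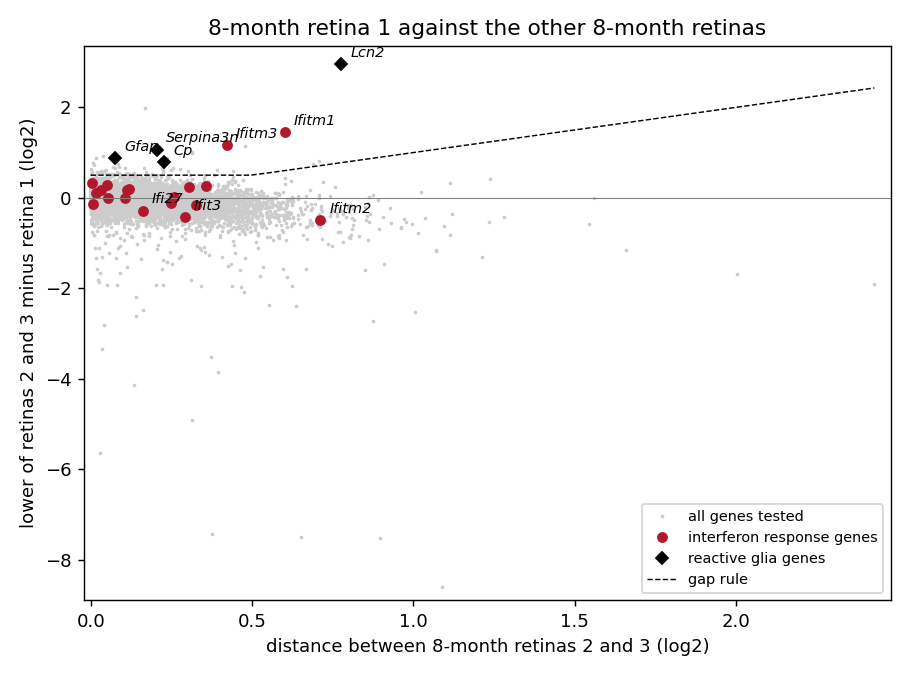
For each of 11219 genes, the lower of 8-month retinas 2 and 3 minus 8-month retina 1 (y axis, log2) against the distance between retinas 2 and 3 (x axis, log2). Red circles are the 19 measured interferon response genes, and genes above the dashed line meet the gap rule. Black diamonds are the 4 of 8 listed reactive glia genes that meet it, Gfap by a less specific probe set. The others of that list, with Vim, are not marked. Ifitm1 at 1.45 and Ifitm3 at 1.16 stand above the line with Lcn2, Serpina3n, Gfap and Cp.

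Other genes shared this split. In the list of 8 reactive glia genes, 4 met the same rule, against 0.588% of all genes. This list too was chosen with earlier results of these data known, so the count is description only. The gaps were 2.96 for Lcn2, an iron-siderophore carrier, and 1.07 for the protease inhibitor Serpina3n. They were 0.88 for Gfap, the filament of reactive astrocytes and Müller cells, and 0.79 for the ferroxidase Cp. Lcn2, with the largest gap of all genes tested, read 5.23, 8.97 and 8.19 in 8-month retinas 1 to 3, against 5.03, 5.46 and 5.87 in the 3-month ones. Vim, for the filament vimentin, went the other way and set retina 1 apart as higher, at 11.51, 10.90 and 10.93 in 8-month retinas, against 10.69, 10.74 and 11.75 in 3-month ones. The mean log2 level of this list was 6.48, 7.26 and 7.18 in 8-month retinas 1 to 3. In the 3-month ones it was 5.89, 6.21 and 6.37. The summed linear signal of the list was 3340 to 3758 at 8 months and 2174 to 4180 at 3 months, most of it from Vim. Vim was highest in 3-month retina 3 and 8-month retina 1, where lens signal was also high. A link of Vim to lens signal was not tested. Whether glia carry the Ifitm signal was not tested. The Gfap value is from a less specific probe set. Another measured one read 4.64, 4.98 and 5.04 in 8-month retinas, against 4.63, 4.08 and 4.72 in 3-month ones, and did not meet the gap rule.

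Microglia and macrophage genes did not share it. Of 15 listed, 5 were measured, with mean log2 levels of 6.30, 6.34 and 6.29 in 8-month retinas 1 to 3, against 5.72, 5.71 and 5.78 in the 3-month ones. Their summed linear signal was 772 to 1000 at 8 months and 508 to 530 at 3 months, with retina 1 the lowest of its age in this sum and above all 3-month retinas. By the gap rule 0 of the 5 set it apart. The defining markers Aif1, Cx3cr1, Itgam and Ptprc stayed below the filter, at 2.25 to 3.48 on all arrays. Of 10 lymphocyte markers only Cd8a was measured, at 4.33 to 4.37 at 8 months and 4.12 to 4.33 at 3 months. Their part in the Ifitm values was not tested.

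Lens signal was high in 8-month retina 1, where Ifitm1 and Ifitm3 were lowest among the 8-month retinas. In 3-month retina 3, which had still more, Ifitm1 and Ifitm3 were the highest of the 3-month retinas, at 5.10 and 6.83. Without both of these retinas the log2 difference was 1.96 for Ifitm1 and 1.81 for Ifitm3, with 2 retinas left per age and no call (limma adjusted p = 0.664 for both), a choice made after seeing the data. Without 8-month retina 1 alone they were 1.80 and 1.69 (limma adjusted p = 0.386 for both). Eye side moved with the split too, and 8-month retina 1, the 1 left eye of its age, differed from the 3-month left eyes by 0.05 for Ifitm1, 0.32 for Ifitm3, 0.95 for Ifitm2 and 0.59 for Ifi27. Eye side and animal cannot be told apart in these 3 retinas.

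**Figure D4:**
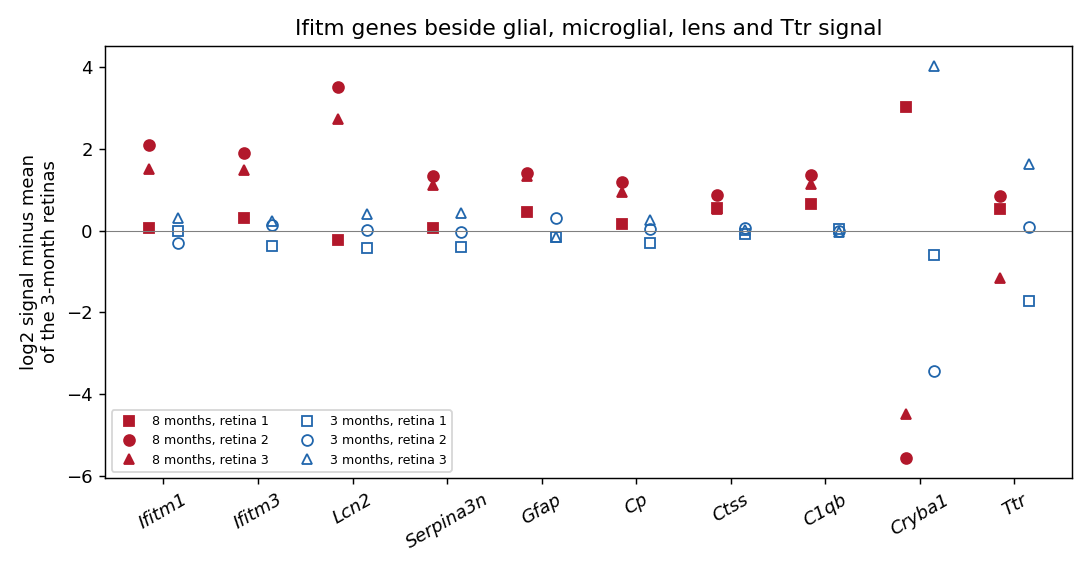
Log2 signal minus the mean of the 3-month retinas (y axis) for Ifitm1, Ifitm3 and the 4 of 8 listed reactive glia genes that meet the gap rule. Also drawn are the microglial genes Ctss and C1qb, the lens gene Cryba1 and the transthyretin gene Ttr. Symbols are as in the plot of all measured genes. The red square of 8-month retina 1 lies near 0 for Ifitm1, Lcn2 and Serpina3n and above all 3-month retinas for Ctss and C1qb.

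Among the receptor chains, Ifnar1, the chain that binds the kinase Tyk2, read 6.54, 6.66 and 6.65 in 8-month retinas 1 to 3, against 6.89, 6.73 and 6.83 in the 3-month ones. All 8-month values lay below all 3-month values, by a small margin, and the log2 difference was -0.20 ± 0.08 (SE; limma adjusted p = 0.334). Its partner Ifnar2 lay below the filter on 3 probe sets, the brightest at 2.81 to 3.54. Ifngr1, the ligand-binding chain for interferon gamma, averaged 5.77 ± 0.12 at 8 months and 5.95 ± 0.17 at 3 months, and the accessory chain Ifngr2 averaged 5.43 ± 0.11 and 5.39 ± 0.04 (log2, SD, n = 3 each). Both overlapped between ages, with limma adjusted p of 0.476 and 0.854.

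Of the transcription factors, Irf9 stood highest at 8 months relative to 3 months. It read 6.44, 6.75 and 6.63 in 8-month retinas 1 to 3, against 6.02, 6.44 and 6.19 in the 3-month ones. The lowest 8-month and the highest 3-month retina were level, and the log2 difference was 0.39 ± 0.13 (SE; limma adjusted p = 0.285). Its partner Stat2 averaged 4.47 ± 0.08 at 8 months and 4.50 ± 0.40 at 3 months on its brighter probe set, and on the other, where the ages did not overlap, the log2 difference was 0.13 (limma adjusted p = 0.471). Irf1, induced by interferon gamma, averaged 5.29 ± 0.06 at 8 months and 5.26 ± 0.06 at 3 months. Irf3, which acts at the first step of interferon production, had log2 differences of -0.10, -0.09 and 0.17 on 3 measured probe sets, with limma adjusted p of 0.757, 0.83 and 0.653. Irf7, the factor that amplifies type I interferon production, stayed between 2.99 and 3.39, below the filter.

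The RNA sensors showed little signal. Ddx58, which encodes RIG-I, was measured on 1 of 3 probe sets, at 4.27, 4.29 and 4.55 in 8-month retinas 1 to 3, against 4.56, 4.22 and 4.47 in the 3-month ones. The ages were mixed, with a log2 difference of -0.04 ± 0.12 (SE; limma adjusted p = 0.881). Ifih1, which encodes the sensor MDA5, lay at 2.76 to 3.14 on all arrays.

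The 4 measured classical effectors were higher at 8 months by sign, 3 of them by 0.13 or less (log2), and in each the ages overlapped. Ifit1 read 4.01, 4.63 and 4.28 in 8-month retinas 1 to 3, against 3.55, 2.80 and 4.56 in the 3-month ones. The 3-month retinas spread so widely that they held both the lowest value and 1 close to the highest, and the log2 difference was 0.67 ± 0.41 (SE; limma adjusted p = 0.468). It was 0.26 without 3-month retina 2 and 1.13 without 3-month retina 3. Ifit2, another RNA-binding member of the family, averaged 5.04 ± 0.16 at 8 months and 5.02 ± 0.11 at 3 months, and Ifit3, which binds Ifit1 in mouse and human cells, averaged 5.95 ± 0.22 and 5.82 ± 0.17 (log2, SD, n = 3 each). In Ifit3 the highest retina was 8-month retina 1, at 6.13. Mx1, a dynamin-like GTPase, read 4.28, 4.34 and 4.28 at 8 months and 4.28 in each 3-month retina. Values this equal may be a floor of the probe set, so the sign of Mx1 says little. Oas1a, Oas2 and Oasl2, of the oligoadenylate synthetase family, and Mx2, Isg20 and Rsad2, the gene of viperin, were below the filter on all their 8 probe sets.

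Among the interferon-induced GTPases, which act on membranes around intracellular microbes, only Igtp was measured. It read 4.49, 4.82 and 4.82 in 8-month retinas 1 to 3, against 4.95, 4.36 and 4.60 in the 3-month ones, and the ages overlapped (log2 difference 0.07 ± 0.17, SE; limma adjusted p = 0.854). Gbp2, Gbp3, Iigp1 and Irgm1 lay below the filter. Gbp3 read 3.47, 3.45 and 3.00 in 8-month retinas 1 to 3, against 2.77, 2.76 and 2.85 in the 3-month ones, a log2 difference of 0.52 with no overlap of the ages.

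Of the other induced genes, Ifi27, whose product sits in mitochondrial and nuclear membranes, was higher in every 8-month retina on both its probe sets. The brighter, less specific one read 6.60, 6.32 and 6.48 in 8-month retinas 1 to 3, against 6.12, 5.66 and 6.25 in the 3-month ones, and the other read 6.05, 6.35 and 5.99, against 5.92, 5.88 and 5.81. On the brighter one 8-month retina 1 was the highest of all 6, unlike in Ifitm1 and Ifitm3. The log2 differences were 0.46 ± 0.17 and 0.26 ± 0.11 (SE), with limma adjusted p of 0.295 and 0.347. Ifi35, a partner of the protein Nmi, read 8.09, 8.38 and 8.43 in 8-month retinas 1 to 3, against 7.86, 8.11 and 8.00 in the 3-month ones, on a less specific probe set (log2 difference 0.31 ± 0.12, SE; limma adjusted p = 0.312). Its specific probe set differed by 0.07 and another less specific one by 0.10, both with overlapping ages. Xaf1, a binding partner of the apoptosis inhibitor XIAP, averaged 4.69 ± 0.28 at 8 months and 4.68 ± 0.21 at 3 months.

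The 16 genes with a probe set but none measured were Ifnar2, Irf7, Ifih1, Oas1a, Oas2, Oasl2, Mx2, Isg20, Rsad2, Usp18, Gbp2, Gbp3, Iigp1, Irgm1, Bst2 and Rtp4. Their 23 probe sets ranged from 2.22 to 4.12, and Bst2, the gene of tetherin, came closest to the filter at 3.96 to 4.12 without a difference between ages (-0.04). In 6 of these genes every value lay under 3. Over all 29 unmeasured probe sets of the interferon response genes, the ages did not overlap in 5 that were higher at 8 months, against 4.97% of all probe sets under the filter, and in 1 that was lower, against 6.12%. The 5 belonged to Ifnar1, Gbp2, Gbp3, Iigp1 and Rtp4, with log2 differences from 0.07 to 0.52, and the 1 to Ifnar2, at -0.43. Among the 5, Ifnar1 read 2.24 to 2.37, Iigp1 2.28 to 2.39 and Gbp2 2.22 to 2.57, which may be a floor. The measured Ifnar1 probe set went the other way, at -0.20. No test was made on probe sets under the filter. Of the genes with no probe set of their own, Isg15, a ubiquitin-like modifier, is named only on a probe set listed for several genes, and Ifi44 was not found by name. Neither was analysed here.

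Further genes of the pathway were read from 4 lists. Of 12 interferon genes, 3 were measured. Ifna1 read 6.20, 6.56 and 6.24 in 8-month retinas 1 to 3, against 5.63, 5.98 and 5.21 in the 3-month ones, so that the ages did not overlap (log2 difference 0.73 ± 0.20, SE; limma adjusted p = 0.24). Its probe set is less specific, and the alpha interferon genes are near copies of each other, so the value may not belong to Ifna1. Ifna5, on another less specific probe set, and Ifnz differed by 0.01 and -0.17, with limma adjusted p of 0.968 and 0.563.

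Of 11 further receptor and signalling genes 7 were measured, and 0 passed (limma), with 1 higher at an unadjusted p under 0.05, against 3.58% of all genes. This was Socs3, a feedback inhibitor of JAK kinases, with log2 differences of 0.64 ± 0.22 and 0.48 ± 0.17 (SE) on 2 less specific probe sets (limma adjusted p = 0.285 and 0.293). The phosphatase gene Ptpn11, the kinase gene Tyk2 and Pias1 differed by -0.13, 0.09 and 0.11. Further measured probe sets gave -0.57 for Ptpn11, 0.12 for Tyk2 and from -0.03 to 0.17 for Pias1. On both measured Ptpn11 probe sets every 8-month value lay below every 3-month value. Of 19 sensors and inducers 6 were measured, and 0 passed (limma), with 2 higher at an unadjusted p under 0.05, against 3.58% of all genes. Tlr3, the sensor of double-stranded RNA in endosomes, read 7.09, 6.98 and 6.96 in 8-month retinas 1 to 3, against 6.47, 6.77 and 6.77 in the 3-month ones. All 8-month values lay above all 3-month values (log2 difference 0.34 ± 0.11, SE; limma adjusted p = 0.269), on a less specific probe set. Irf4, a factor of lymphoid and myeloid cells, differed by 0.51 ± 0.17 with overlapping ages (limma adjusted p = 0.278), while Tlr9, an endosomal DNA sensor, and Irf5 differed by 0.13 and -0.12.

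Of 58 other interferon-stimulated genes 25 were measured, 13 higher and 12 lower at 8 months, with a median log2 difference of 0.01. None passed (limma), and at an unadjusted p under 0.05 there were 3 higher, against 3.58% of all genes, and 1 lower, against 11.5%. The higher ones were Eif2ak2, the gene of the RNA-activated kinase PKR, Dtx3l, a ubiquitin ligase gene, and Cmpk2, a mitochondrial nucleotide kinase gene. Their log2 differences were 0.39 ± 0.12, 0.27 ± 0.09 and 0.33 ± 0.12 (SE), with limma adjusted p of 0.263, 0.278 and 0.295, and in each the 8-month retinas lay above the 3-month ones. Trim25, the ubiquitin ligase that acts on RIG-I, read 7.19, 7.12 and 7.10 in 8-month retinas 1 to 3, against 7.50, 7.36 and 7.70 in the 3-month ones. It was lower in every 8-month retina on both its measured probe sets, by -0.39 ± 0.10 and -0.37 ± 0.11 (log2, SE; limma adjusted p = 0.232 and 0.265). In these 4 lists 0 genes set 8-month retina 1 apart as lower by the gap rule, against 0.588% of all genes, and 1, the ATPase gene Tor3a, set it apart as higher.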

How the data were processed

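Messenger RNA was measured on Affymetrix arrays. The deposited values are log2 signals per probe set. The submitters' processing notes name GCRMA (version 1.1.0) and R (version 1.9.0) as the software the authors used. No detection call enters. Genes were named from the platform annotation. After leaving out 64 control probe sets, 20973 of 45037 passed the filter. The test was limma's moderated one (limma 3.58.1, R 4.3.3), 8 minus 3 months with no covariate, two-sided, with Benjamini-Hochberg adjustment over all 20973 and a threshold of 0.05. The fit was tested on simulated data. Ratios are back-transformed log2 differences. All measured interferon response genes are named, and from each further list of the pathway the 4 genes of smallest p. Members and lists were chosen with earlier results of these data known, so no list test was made. Precision is limited by having 3 arrays per age. Promoter sequences are from RefSeq, GRCm38.p6, matched by symbol. Probe sets ending in _s_at or _x_at are called less specific.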

Additional observations from a re-analysis of the deposited data

How the results depend on the processing

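In all 18 alternatives 0 of the interferon response genes passed the adjusted threshold in limma, where the main comparison also gave 0. The count at an unadjusted p under 0.05 was 6 higher in the main comparison (3.58% of all genes), 0 after adjusting for eye side (1.85%), and 7 when both lens-rich retinas were left out (1.9%). That last alternative and the one with left eyes only were chosen after seeing the data. With the replicate number as a replicate block the count stayed at 6, with 0 genes past the adjusted threshold. The smallest limma adjusted p was then 0.336, for Irf9, and over all probe sets 0 passed against 1. The numbers do not pair the retinas, since the deviations of same-numbered retinas from their age means correlated at -0.14, 0.06 and -0.28. Genes higher at 8 months without overlap, 2 in the main comparison, were 4 after cyclic loess, 4 after quantile normalization, 6 after median centring, 4 among left eyes and 9 without both lens-rich retinas, where the shares of all genes were 9.78%, 8.9%, 15.7%, 17% and 13.4%. Leaving out each retina in turn gave 2 to 6, with shares of all genes from 8.72% to 12.7%. With the filter at 6, 6 genes were left, with a median log2 difference of 0.35 in place of 0.04, and 1 gene, Ifitm3, met the gap rule in place of 2. Leaving out each retina in turn gave medians of 0.02 to 0.10 and 2 genes by the gap rule where the 8-month retinas were complete.

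Ifitm3 ranged from 0.32 to 1.81 and Ifitm1 from 0.05 to 1.96 (log2 difference) over the alternatives, the lowest with eye side as a covariate. Of 329 gene values, taken to 2 decimals, 298 kept their sign, 10 were 0 and 21 turned. The 21 belong to 7 genes close to 0. Adjusting for eye side, and equally among left eyes, Ifngr2 was -0.09, Stat2 0.06, Igtp -0.14 and Xaf1 -0.26. Stat2 was 0.05 with the mean of probe sets and 0.05 after median centring, where Ddx58 was 0.04. Without 3-month retina 1, Stat2 was 0.07, Ddx58 0.03 and Xaf1 -0.11. Without 3-month retina 2, Irf3 was 0.11, Stat2 0.10, Ifit2 -0.04 and Igtp -0.06. Without 8-month retina 2, Ifit2 was -0.06, without 8-month retina 3, Xaf1 was -0.13, and without both lens-rich retinas Ddx58 was 0.03. Over the alternatives that leave out 1 retina, Stat2 ran from -0.26 to 0.10, Irf3 from -0.23 to 0.11, Ddx58 from -0.14 to 0.03, Ifit2 from -0.06 to 0.10, Igtp from -0.06 to 0.23 and Xaf1 from -0.13 to 0.14. The causes were not tested. Of the 35 genes with a probe set, 16 were not measured, so that the array gives little on them.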
